A study of Mus musculus with 14 samples.

Results

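Nuclear receptors are transcription factors that sense hormones, vitamins and lipids, or that act without a known ligand, and coregulators are the proteins they recruit to switch genes on or off. The report describes 46 genes of this system in mouse PiC neurons: 27 receptors, 16 coregulators and 3 co-chaperones, out of 55401 genes listed in the deposited table. They were chosen by gene name, with no measured value in the rule but with earlier results of these data known. Each matched exactly 1 row of raw counts. The steroid hormone receptors themselves were not among them.

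Each of the 14 libraries came from 1 tube of 4 to 5 EGFP-labelled PiC cells of wild-type C57BL/6 mice, read by SMART-Seq2, a full-length method for polyadenylated RNA. The cells had been labelled by 0.1 µl of AAVretro-EGFP, a virus taken up by axon ends, in either MeA or PrL, so a tube samples PiC cells that reach that target. There were 3 male PiC-MeA tubes beside 4 male PiC-PrL tubes, and 3 female PiC-MeA tubes beside 4 female PiC-PrL tubes, and all of them carried the virus. The abbreviations are those of the labels. Neither age nor the number of animals is stated in these sources, so replicates may be technical and p-values measure only the spread between these tubes.

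In most cells a receptor such as that for retinoic acid or thyroid hormone sits on DNA beside a retinoid X receptor partner. Without ligand it holds a corepressor complex built around Ncor1 and Tbl1xr1, and with ligand it exchanges this for p160 coactivators (Ncoa1, Ncoa2, Ncoa3), the acetyltransferases Crebbp and Ep300, and the Mediator subunit Med1. In brain, thyroid hormone and retinoic acid receptors are known for roles in neuronal maturation, and REV-ERB and ROR receptors oppose each other on genes of the circadian clock.

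Total counts ran from 6132985 to 15392217 per library. The male PiC-MeA libraries stood apart: 18964 to 20014 genes were detected in them with at least 1 count, against 12479 to 14908 elsewhere. They also held 10 or more counts for 40 to 41 of the 46 members, against 23 to 35 in the others. Summed astrocyte markers, all 10 detected in every male PiC-MeA library, came to 1330 to 1573 CPM (counts scaled to a common library total) there. The sum was 329.5 to 432 CPM in female PiC-MeA libraries, where 2 of the 10 were at 0 in every library, and 669.6 to 1507 CPM in PiC-PrL libraries. Summed inhibitory neuron markers ran from 66.1 to 4907 CPM over all libraries. Gad1, Gad2, Sst, Npy, Pvalb and Adarb2 had counts in every library, and Vip, Lhx6 and Dlx6os1 in some. Slc32a1 was at 0 in all female libraries and Dlx1 at 0 in all 14. Microglial markers, 9 of 10 of them, were also found in every library. Of 8 pan-neuronal markers, 6 were found in every library, while Tubb3 and Nefl were listed at 0 throughout. Of 8 excitatory neuron markers, 7 or 8 were found in every library of each group. In such pools, fewer cells of a type and less RNA per cell cannot be told apart.

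Sequences upstream of 3 receptor genes are shown: that of Rarb because its groups did not overlap in either sex and its window holds a retinoic acid motif, and those of Nr1d1 and Nr1d2 because these paralogs had fitted sex differences of opposite sign in PiC-PrL, neither of which passed the test. Each is the 250 bases before a start site annotated by RefSeq on GRCm38.p6, printed 5′ to 3′ on the gene's strand. Capitals mark a match, on either strand, to AGGTCA, the core hexamer bound by many of these receptors, or to CACGTG, the E-box bound by clock proteins. They also mark GGTTCANNNNNAGTTCA, a retinoic acid response element, a direct repeat with 5 bases between its arms. The arms searched are spelled as in the Rarb element, so the Rarb match was fixed in advance. Rarb encodes retinoic acid receptor beta, and Nr1d1 and Nr1d2 encode REV-ERB alpha and beta.
Rarb, chr14:16575477-16575726, minus strand: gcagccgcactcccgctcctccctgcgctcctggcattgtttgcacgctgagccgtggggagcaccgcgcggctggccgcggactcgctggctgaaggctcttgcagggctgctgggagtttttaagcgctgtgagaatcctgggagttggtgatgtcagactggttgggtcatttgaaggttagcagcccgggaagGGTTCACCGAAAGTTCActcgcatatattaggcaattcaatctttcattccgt
Nr1d1, chr11:98775378-98775627, minus strand: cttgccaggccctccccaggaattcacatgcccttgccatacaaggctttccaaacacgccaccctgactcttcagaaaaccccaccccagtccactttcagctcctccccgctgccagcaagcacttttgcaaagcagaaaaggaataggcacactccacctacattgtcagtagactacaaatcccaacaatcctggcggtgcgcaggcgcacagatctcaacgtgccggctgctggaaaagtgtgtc
Nr1d2, chr14:18239107-18239356, minus strand: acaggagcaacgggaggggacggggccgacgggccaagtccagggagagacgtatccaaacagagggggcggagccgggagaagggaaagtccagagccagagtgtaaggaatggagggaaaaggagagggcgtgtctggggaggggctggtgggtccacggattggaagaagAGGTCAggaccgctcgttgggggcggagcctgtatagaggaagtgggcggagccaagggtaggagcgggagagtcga

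The direct repeat lay from -53 to -37 relative to the Rarb start site and occurred in 2 of the 32851 windows in the RefSeq table, or 0.00609%, where only the 250 bases before each start site were searched. Rarb held the only such window among the 41 members with an entry. Because the arms searched were those of Rarb, neither its match nor this rarity is a result. AGGTCA was present in the window of Nr1d2, from -77 to -72, and not in that of Nr1d1. It occurred in 10 of 62 member windows (16.1%), of 9 genes, against 14% of all windows. CACGTG occurred in 3 of 62 (4.84%), those of Rara, Thrb and Fkbp5, against 6.02% of all windows. A match describes letters only, and which start site the counted reads came from is not known.

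Receptor genes ranged more widely in level than coregulator genes. Levels here are CPM scaled by the trimmed mean of M-values, and comparisons between genes use CPM per kilobase of exon, averaged over 14 libraries. Receptors ran from 0 to 39.2 CPM per kilobase with a median of 2.13. Coregulators ran from 1.68 to 13.8 with a median of 5.22. The 3 co-chaperones, which help hold steroid receptors in the HSP90 complex, stood at 114 (Ptges3, p23), 30.4 (Fkbp4, FKBP52) and 0.99 (Fkbp5, FKBP51, a glucocorticoid-induced gene). After Ptges3 and Thrb (39.2) came Fkbp4, then Nr1d1 (24.5), Rorb (23.2) and Thra (15.1). Ptges3-ps, a pseudogene row of its own, held 37 to 849 counts, and the handling of reads shared with Ptges3 is not stated in these sources.

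**Figure D1:**
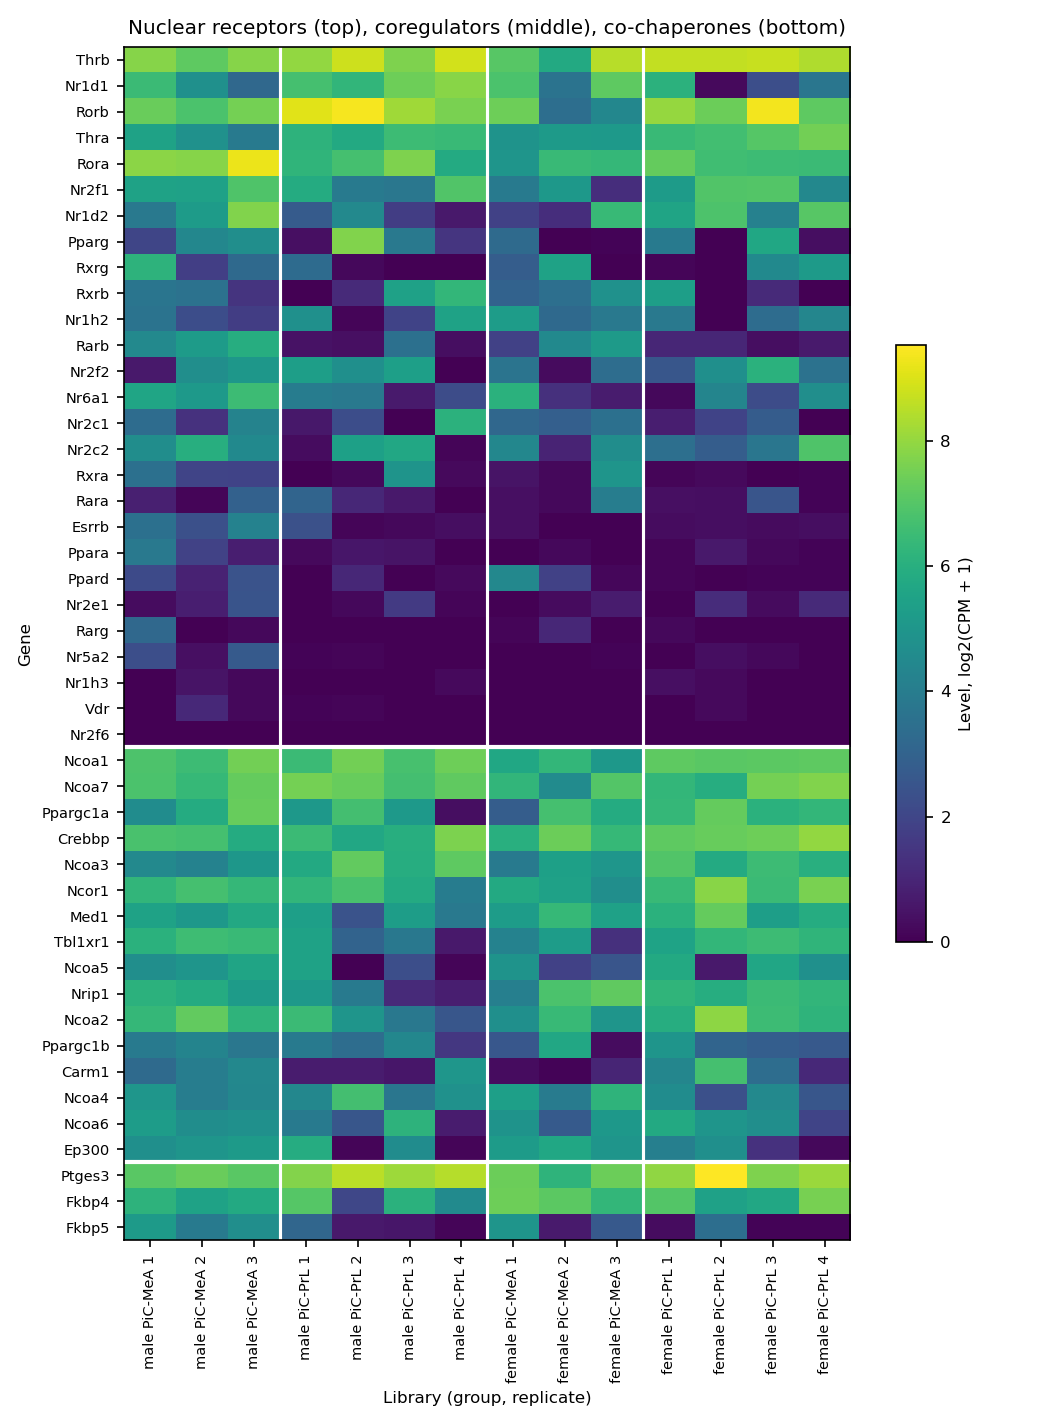
Level of the 46 genes (rows, by role and then by mean level per kilobase) in the 14 libraries (columns, by group and replicate), with colour giving log2(CPM + 1). Coregulator rows are filled in most libraries, while the lower receptor rows are near 0 in many libraries.

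Spread between tubes was also larger for receptors, whose levels were lower. The median of mean CPM was 13.8 for receptors, 53.6 for coregulators and 16.2 for all genes tested. The part of level in the spread was not tested. The SD divided by the mean of CPM over 14 libraries had a median of 1.45 over receptors and 0.753 over coregulators. Over the 22 receptors that passed the filter on low counts it was 1.33, against 1.18 over all 14599 genes that passed it. Of coregulators, 8 of 16 had 10 or more counts in all 14 libraries, and of receptors 5 of 27 (18.5%), namely Thra, Thrb, Rora, Rorb and Nr2f1. Among genes that passed the filter these are 5 of 22 receptors (22.7%), against 26.7% of all genes. Ncoa1, the steroid receptor coactivator SRC-1, varied least, with an SD to mean ratio of 0.391. Many receptors had high counts in some tubes of a group and almost none in others. Of 71 pairs of a receptor and a group with 100 or more counts in some library, 27 (38.0%) had another library of that group under 10. The share was 15.9% for coregulators, and 37.1% for tested receptors against 35% for all genes tested. Pparg, the fat-cell master regulator, is an example, with 0.321, 212, 13.4 and 1.76 CPM in male PiC-PrL replicates 1 to 4.

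**Figure D2:**
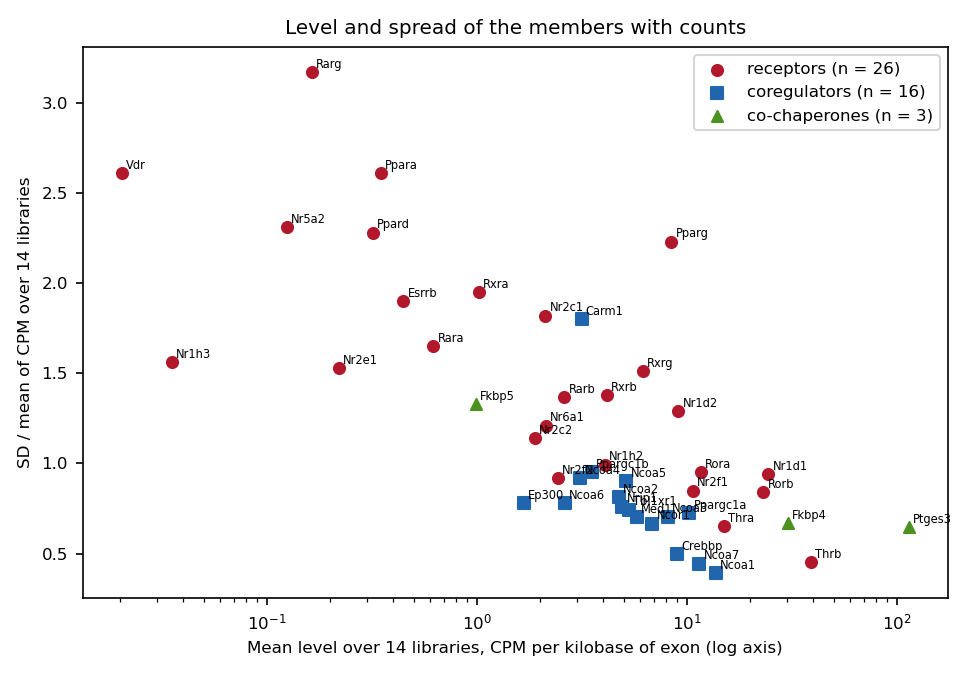
Mean level (x axis, CPM per kilobase of exon, log axis) against SD divided by mean of CPM (y axis) over 14 libraries for the 45 genes with a count. Coregulators run from Ncoa1 at 0.391 to Carm1 at 1.80 on the y axis, and receptors from Thrb at 0.453 to Rarg at 3.17.

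The lowest members were all receptors. Nr2f6, an orphan receptor related to the COUP factors, was listed at 0 in all libraries. A count of 0 allows up to 3 counts, or 0.192 to 0.433 CPM per library, but 54.4% of its exon bases overlap Ocel1 on the other strand, so these zeros do not show absence. The vitamin D receptor gene Vdr reached at most 14 counts, the liver X receptor gene Nr1h3 at most 5, Nr5a2 (LRH-1) at most 49 and Rarg (retinoic acid receptor gamma) at most 106. These 5 did not pass the filter on low counts, and the other 41 (22 receptors, 16 coregulators and 3 co-chaperones) were tested. Nr2e1, the neural stem cell receptor TLX, was tested but had at most 32 counts in any library. A gene that passed the filter through 1 high group had to differ, so counts over the tested genes are a description.

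Projection was compared within each sex, PiC-MeA minus PiC-PrL, by edgeR's quasi-likelihood test with Benjamini-Hochberg adjustment over 14599 genes. In males 0 of 41 members passed an adjusted p of 0.05, against 0.603% of all genes tested. Of the 41, 6 (14.6%) had an unadjusted p under 0.05, against 22.2% of all genes. In females 0 of 41 passed, against 0% of all genes, and 10 members (24.4%) had an unadjusted p under 0.05, against 11.1%. With both sexes averaged 0 of 41 passed, against 0.822%, and 7 (17.1%) had an unadjusted p under 0.05, against 17.4%. The DESeq2 Wald test called 5 members in males, 5 in females and 6 on average, against 2022, 628 and 1492 of all 14599 genes. Fitted changes of members were positive in 25 of 41 in males (median 0.42, against 0.16 over all genes) and in 16 of 41 in females (median -0.80, against -0.06).

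Groups did not overlap for 7 members higher (17.1%) and 4 lower (9.76%) in male PiC-MeA, against 19.2% and 6.23% of all genes. In females 4 were higher (9.76%) and 8 lower (19.5%) in PiC-MeA, against 4.47% and 3.97% of all genes. Of 16 coregulators, 5 lay below every PiC-PrL library in female PiC-MeA, namely Ncoa1, Ncoa3, Ncor1, Tbl1xr1 and Carm1, and only Ncoa3 did so in males. The summed coregulator level was 51.6 to 95.6 CPM per kilobase in female PiC-MeA, against 124 to 157 in female PiC-PrL. The mitochondrial share of counts moved with it, at 3.29% to 3.95% in female PiC-MeA against 4.57% to 12.2% in female PiC-PrL, as did summed astrocyte markers, at 329.5 to 432 CPM against 730.3 to 1115 CPM. Their part in the result was not tested. In males the coregulator sums overlapped, at 88.5 to 123 in PiC-MeA and 67.0 to 101 in PiC-PrL.

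**Figure D3:**
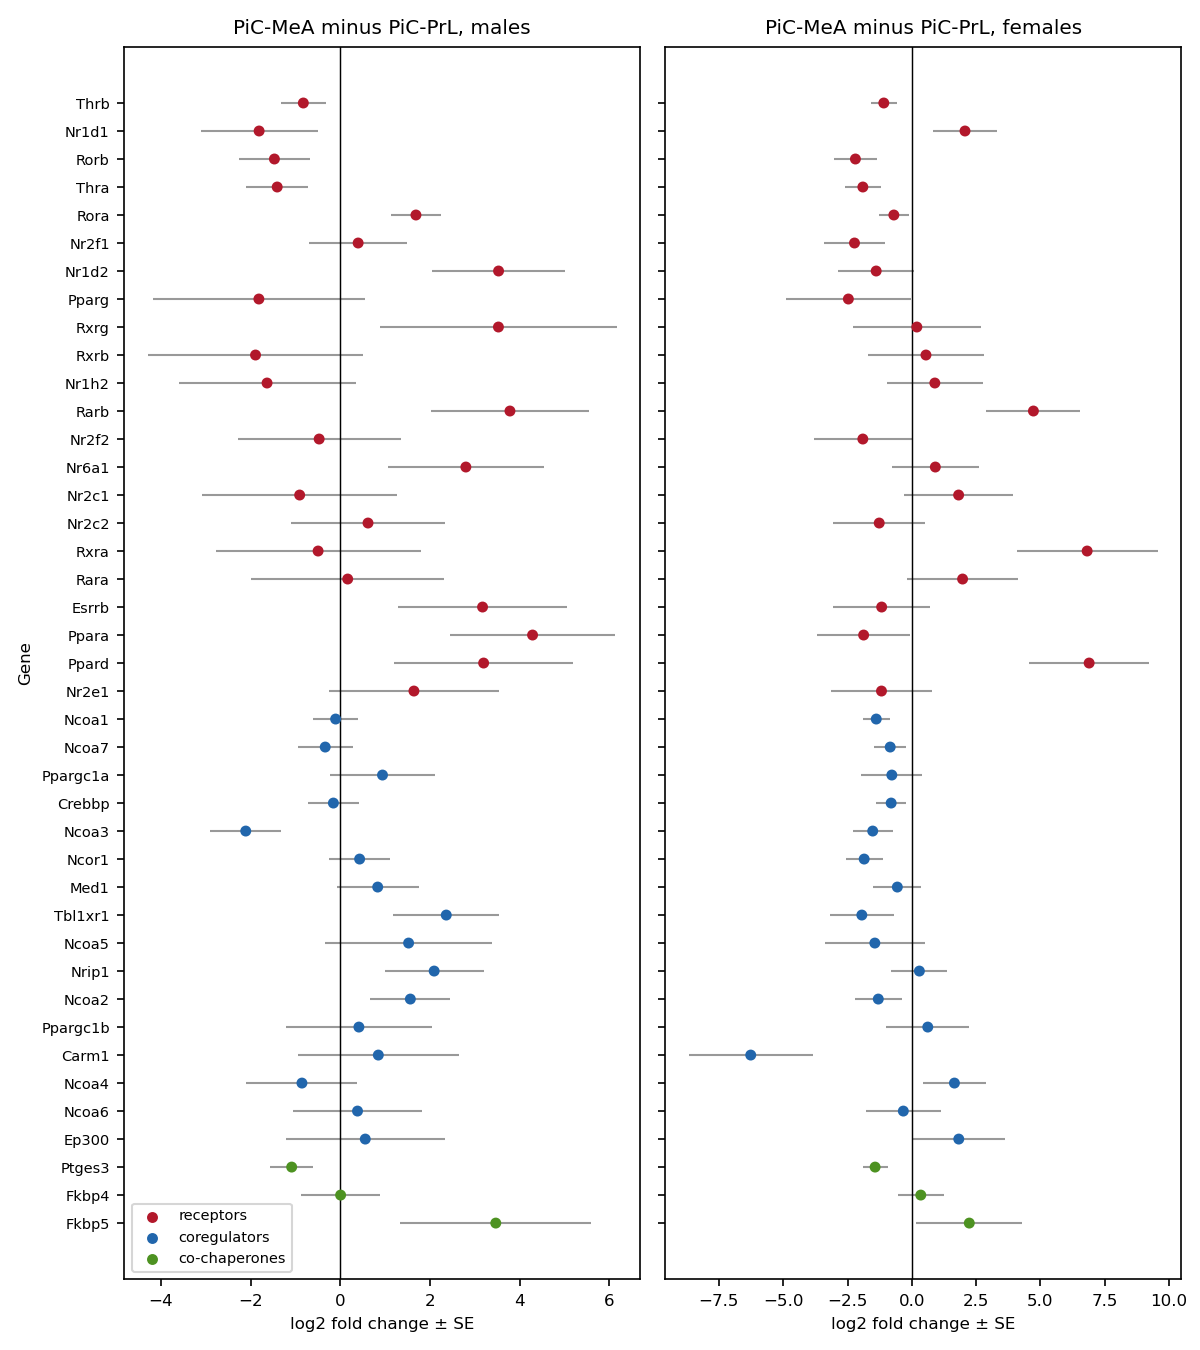
Fitted log2 fold changes with SE (x axis) of the 41 tested genes (rows, coloured by role), PiC-MeA minus PiC-PrL, in males (left) and females (right), with a different x scale in each panel. Thra, Rorb, Ncoa3 and Ptges3 are negative and Rarb positive in both panels, and none passed the adjusted threshold.

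The thyroid hormone receptor alpha gene Thra (chromosome 11, 98740638 to 98769006 on GRCm38, as are the positions given for other genes) separated the projections in both sexes. It stood at 43.9, 27.1 and 14.3 CPM in male PiC-MeA, against 70.1, 54.4, 90.4 and 86.4 CPM in male PiC-PrL. Female PiC-MeA libraries had 28.4, 35.4 and 34.5 CPM, and female PiC-PrL libraries 86.1, 98.8, 128 and 178 CPM. All 6 PiC-MeA libraries were thus below all 8 PiC-PrL libraries. The averaged log2 change was -1.66 ± 0.50 (SE, adjusted p = 0.0715, edgeR), with -1.41 in males and -1.90 in females. DESeq2 called it on average, and also called Rorb, Ncoa3, Ptges3, Rarb and Ppard, with adjusted p from 8.07e-06 for Thra to 0.0291 for Rorb. Its exons overlap those of Nr1d1 on the other strand by 263 bases (5.70% of Thra exon bases).

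Thrb, thyroid hormone receptor beta, was the highest receptor per kilobase and its groups overlapped. Male PiC-MeA had 221, 142 and 221 CPM against 254, 448, 206 and 468 in male PiC-PrL. Female PiC-MeA had 132, 54.9 and 359 CPM, and female PiC-PrL 398, 403, 418 and 331. The averaged log2 change was -0.96 ± 0.36 (adjusted p = 0.154).

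Rorb (chromosome 19, 18930605 to 19111196), an orphan receptor used as a marker of cortical layer 4, was lower in most PiC-MeA tubes. Male PiC-MeA had 163, 113 and 186 CPM, each below the 542, 680, 286 and 195 CPM of male PiC-PrL. Female PiC-MeA had 171, 9.98 and 20.3 CPM, and female PiC-PrL 258, 166, 662 and 142 CPM, with replicate 1 of PiC-MeA inside the PiC-PrL range. The averaged log2 change was -1.83 ± 0.57 (adjusted p = 0.0815). It passed by DESeq2 (-1.80, adjusted p = 0.0291), without female PiC-MeA replicate 1 (-2.94, adjusted p = 0.0105, edgeR) and when no filter on low counts was used (-1.90, adjusted p = 0.00228).

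Among coregulators, Ncoa3 (chromosome 2, 165992636 to 166073242), the coactivator SRC-3, followed Thra. Its levels were 21.5, 17.5 and 31.6 CPM in male PiC-MeA, against 54.8, 150, 60.5 and 141 CPM in male PiC-PrL. In female PiC-MeA they were 14.1, 41.5 and 31.1 CPM, against 121, 56.0, 91.9 and 63.6 CPM in female PiC-PrL, and neither sex showed overlap. The averaged log2 change was -1.81 ± 0.55 (adjusted p = 0.0742). Ptges3 (chromosome 10, 128058954 to 128077272), the HSP90 co-chaperone p23, had the smallest adjusted p of any member, 0.0564, with an averaged log2 change of -1.26 ± 0.34. It stood at 135, 164 and 135 CPM in male PiC-MeA, against 215, 373, 283 and 356 in male PiC-PrL. Female PiC-MeA had 168, 72.7 and 166 CPM, and female PiC-PrL 245, 737, 204 and 273.

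These male differences moved with the number of genes detected, 18964 to 20014 in male PiC-MeA against 12479 to 13683 in male PiC-PrL. With that number as a covariate, the male log2 changes of Thra, Ncoa3 and Ptges3 became 0.10, 0.14 and 1.17, so projection and detection cannot be told apart in males. The averaged changes include the male libraries and share this limit, and with the covariate no gene passed for averaged projection (edgeR). In females detection overlapped (13672 to 14908 in PiC-MeA, 13436 to 14440 in PiC-PrL). There the direction of Thra, Rorb and Ptges3 stayed negative with the covariate, and Ncoa3 was not examined. Without the covariate each of the 3 had an adjusted p of 0.403 in females (edgeR).

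**Figure D4:**
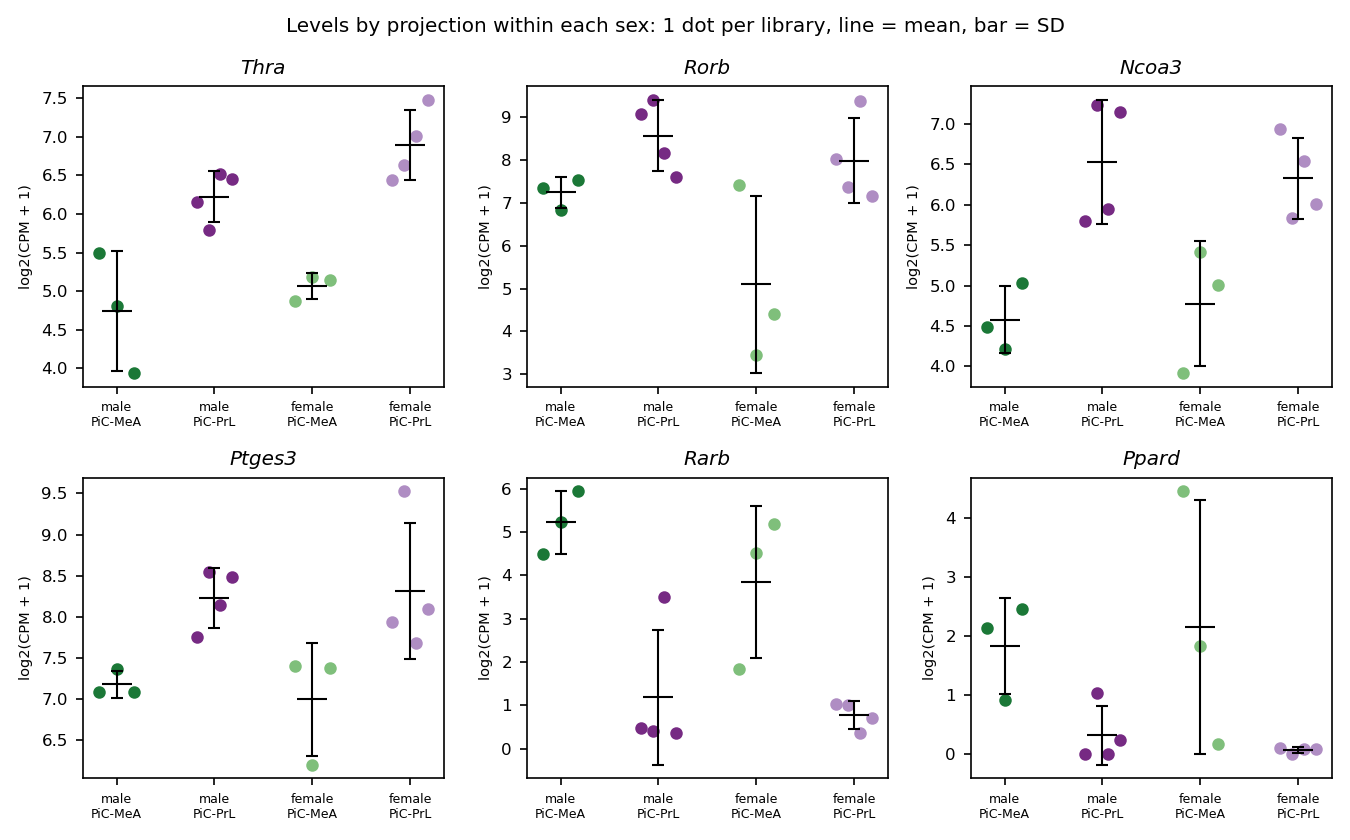
Levels (y axis, log2(CPM + 1)) of 6 genes by group, with 1 dot per library, a line at the mean and a bar for the SD. Thra, Ncoa3 and Ptges3 have every PiC-MeA dot below every PiC-PrL dot of the same sex. Rarb has every PiC-MeA dot above every PiC-PrL dot of the same sex.

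In the opposite direction, Rarb (chromosome 14, 16430839 to 16819156), the gene whose retinoic acid element is printed above, was higher in PiC-MeA tubes of both sexes. Male PiC-MeA had 21.6, 36.5 and 60.3 CPM, against 0.385, 0.326, 10.4 and 0.277 CPM in male PiC-PrL. Female PiC-MeA had 2.60, 21.8 and 35.3 CPM, against 1.05, 1.01, 0.285 and 0.631 CPM in female PiC-PrL. Within each sex the groups did not overlap, and male PiC-PrL replicate 3 was the only PiC-PrL library above 1.05 CPM. The averaged log2 change was 4.25 ± 1.26 (adjusted p = 0.0687), and without that library it was 5.79 (adjusted p = 0.0497). In males the number of genes detected moved the same way, at 18964 to 20014 in PiC-MeA against 12479 to 13683 in PiC-PrL. The male Rarb values were not examined with that number as a covariate, and they enter the averaged change. Of Rarb exon bases, 34.1% overlap Top2b on the other strand. Top2b had an averaged log2 change of -0.98 ± 0.65, with 21.2 to 115 CPM in PiC-MeA and 14.2 to 212 CPM in PiC-PrL. The part of reads shared with it in the Rarb values was not tested. The other retinoid receptors showed no such split: Rara reached at most 15.4 CPM, Rxrb 77.8 CPM and Rxrg, a retinoid X receptor of striatum and muscle, 70.0 CPM, each with libraries under 1 CPM in more than 1 group.

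The remaining members singled out in females by their p rested on few tubes. Ppard, the fatty acid sensor PPAR delta, had 20.8, 2.57 and 0.129 CPM in female PiC-MeA, against 0 to 1 counts in every female PiC-PrL library. The summed levels differed by a ratio of 122, with a 95% interval of 41.4 to 596 that covers counting error only. Its fitted log2 change in females was 6.89 ± 2.33 (adjusted p = 0.403), a value that depends on the prior count of the fit. Male PiC-MeA had 3.39, 0.894 and 4.48 CPM, against 0, 1.06, 0 and 0.185 in male PiC-PrL. Rxra, the common partner of many receptors, had 0.406, 0.151 and 30.6 CPM in female PiC-MeA and 0 to 2 counts in female PiC-PrL, with a fitted log2 change of 6.81 (1.54 to 7.45 with each library left out in turn).

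In males the members with the smallest p toward PiC-MeA were Rora, Nr1d2 and Ppara. Rora (chromosome 9, 68653786 to 69388246), the retinoid-related orphan receptor alpha, stood at 234, 223 and 606 CPM in male PiC-MeA, against 74.0, 104, 206 and 56.3 CPM in male PiC-PrL (log2 1.69, adjusted p = 0.0934, edgeR). Nr1d2 had 13.4, 36.8 and 209 CPM, against 5.71, 21.3, 2.36 and 0.554 CPM (log2 3.53, adjusted p = 0.162), and its groups overlapped. When the detected-gene number entered the fit, the Nr1d2 value was -5.58. Ppara, the fatty acid receptor PPAR alpha, had 13.3, 2.68 and 0.722 CPM against at most 0.489 CPM (log2 4.29, adjusted p = 0.169).

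Sex was compared within PiC-MeA, male minus female, and 0 of 41 members passed, against 0% of all genes tested. Of the 41, 5 (12.2%) had an unadjusted p under 0.05, against 12.4% of all genes. DESeq2 called 4, against 777 of all 14599 genes. Groups did not overlap for 8 members higher in males (19.5%, against 17.5%) and 1 lower (2.44%, against 8.76%). The 8 were Rora, Ppara, Esrrb, Nr2f1, Ncoa1, Carm1, Tbl1xr1 and Ncor1, and the 1 was Fkbp4. Fitted changes were positive in 26 of 41 (median 0.63, against 0.12 over all genes).

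Rora was the clearest of these. All 3 male PiC-MeA libraries (234, 223 and 606 CPM) lay above the 30.1, 87.9 and 81.2 CPM of female PiC-MeA, a log2 change of 2.41 ± 0.64 (adjusted p = 0.298, edgeR). They were also above all male and female PiC-PrL libraries, of which the highest was 206 CPM. The female PiC-MeA libraries lay below every female PiC-PrL library (log2 -0.70, adjusted p = 0.803, edgeR), the opposite direction to males. The summed astrocyte markers moved with the sex difference of Rora, at 1330 to 1573 CPM in male against 329.5 to 432 CPM in female PiC-MeA. So did endothelial and mural markers (42.8 to 99.6 against 0.467 to 2.82 CPM) and the mitochondrial share (4.80% to 15.3% against 3.29% to 3.95%). Summed inhibitory neuron markers did too (168.8 to 2151 against 66.1 to 145.5 CPM), among them Adarb2 (76.7 to 521.9 against 3.15 to 22.7 CPM). The other marker sums overlapped, and the part of all these in the result was not tested. Male replicate 3, with Rora at 606 CPM, had the highest mitochondrial share and the lowest total count of the 14 libraries. Esrrb, estrogen-related receptor beta, had 10.4, 3.98 and 17.5 CPM in male PiC-MeA, against 4, 0 and 0 counts in female PiC-MeA, a ratio of summed levels of 97.2 with a 95% counting interval of 37.6 to 359. Ppara had 2 counts in all female PiC-MeA libraries together, a ratio of 133 with a counting interval of 36.2 to 1100 (fitted log2 6.54, adjusted p = 0.298). The male PiC-MeA libraries were also those with a count for the most genes. The fitted Esrrb change was 6.51, and -3.06 when the detected-gene number entered the fit.

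Toward females, Fkbp4, the FKBP52 co-chaperone, had 70.2, 43.4 and 54.3 CPM in male PiC-MeA, against 173, 138 and 78.7 CPM in female PiC-MeA (log2 -1.22, adjusted p = 0.836). Nr1h2, liver X receptor beta, had 11.4, 3.82 and 2.31 CPM against 37.0, 8.62 and 13.3 CPM. Nr1d1 had 89.0, 26.7 and 8.23 CPM against 113, 11.5 and 142 CPM, with overlap for both. Among coregulators, Ncoa1 stood at 116, 90.6 and 178 CPM in male and 49.6, 78.3 and 32.9 CPM in female PiC-MeA (log2 1.26, adjusted p = 0.371). Carm1, an arginine methyltransferase that acts with the p160 proteins, had 8.92, 15.3 and 20.8 CPM against 0.244, 0.0756 and 0.965 CPM, and 21.1% of its exon bases overlap Yipf2.

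Sex within PiC-PrL gave 0 of 41 members past the adjusted threshold, against 0% of all genes. At an unadjusted p under 0.05 there were 4 (9.76%), against 14.3%. DESeq2 called 0, against 1017 of all 14599 genes. Groups did not overlap for 1 member higher in males (2.44%, against 1.49%) and 2 lower (4.88%, against 2.02%). Of 16 coregulators 12 had a negative and 4 a positive fitted change (median -1.02), while the receptors had 13 positive and 9 negative (median 0.43). Over all genes 50.6% were negative (median -0.02). Summed coregulator levels were 67.0 to 101 CPM per kilobase in male and 124 to 157 in female PiC-PrL, and summed receptor levels were 171 to 254 in male and 150 to 221 in female PiC-PrL. The number of genes detected was 12479 to 13683 in male and 13436 to 14440 in female PiC-PrL, and its part in these sums was not tested.

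The REV-ERB genes ran opposite ways in this comparison. Nr1d1 (chromosome 11, 98767932 to 98775333) had 104, 76.3, 169 and 230 CPM in male PiC-PrL, against 68.6, 0.184, 3.85 and 12.3 CPM in female PiC-PrL, with no overlap (log2 2.77 ± 1.22, adjusted p = 0.309). Nr1d2 (chromosome 14, 18204054 to 18239127) had 5.71, 21.3, 2.36 and 0.554 CPM in male PiC-PrL, against 46.6, 115, 17.0 and 133 CPM in female PiC-PrL, with male replicate 2 above female replicate 3 (log2 -3.38 ± 1.44, adjusted p = 0.294). Both genes encode repressors of the clock gene Arntl and are known to cycle over the day, and the sources used here state no hour of collection.

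Of coregulators, Nrip1, the corepressor RIP140, had 34.6, 14.1, 1.18 and 0.739 CPM in male PiC-PrL, against 75.2, 59.9, 90 and 77.2 CPM in female PiC-PrL (log2 -2.58 ± 1.08, adjusted p = 0.289). Tbl1xr1, a subunit of the NCoR complex, had 43.7, 7.09, 12.9 and 0.554 CPM against 44.9, 78.7, 91.7 and 75.1 CPM (log2 -2.18, adjusted p = 0.397). These were the 2 without overlap. Ncoa2, the coactivator GRIP1, had 89.0, 30.1, 13 and 4.80 CPM against 60.1, 237, 91.3 and 73.1 CPM. Male replicate 4, looked at after its values were seen, was the lowest of the 14 libraries for Nrip1, Tbl1xr1, Ncoa2, Ncor1 (15.1 CPM) and Ppargc1a (PGC-1 alpha, 0.277 CPM), and it had 10 or more counts for 23 members, the fewest of any library. Rxra and Nr2c1 (the orphan receptor TR2) were named by p toward males, and each rested on 1 tube: Rxra had 29.9 CPM in male replicate 3 and Nr2c1 68.8 CPM in male replicate 4. The fitted Nr2c1 change was 2.95, and -0.72 without male PiC-PrL replicate 4. That of Rxra was 6.36, and as low as 0.42 with 1 library left out.

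**Figure D5:**
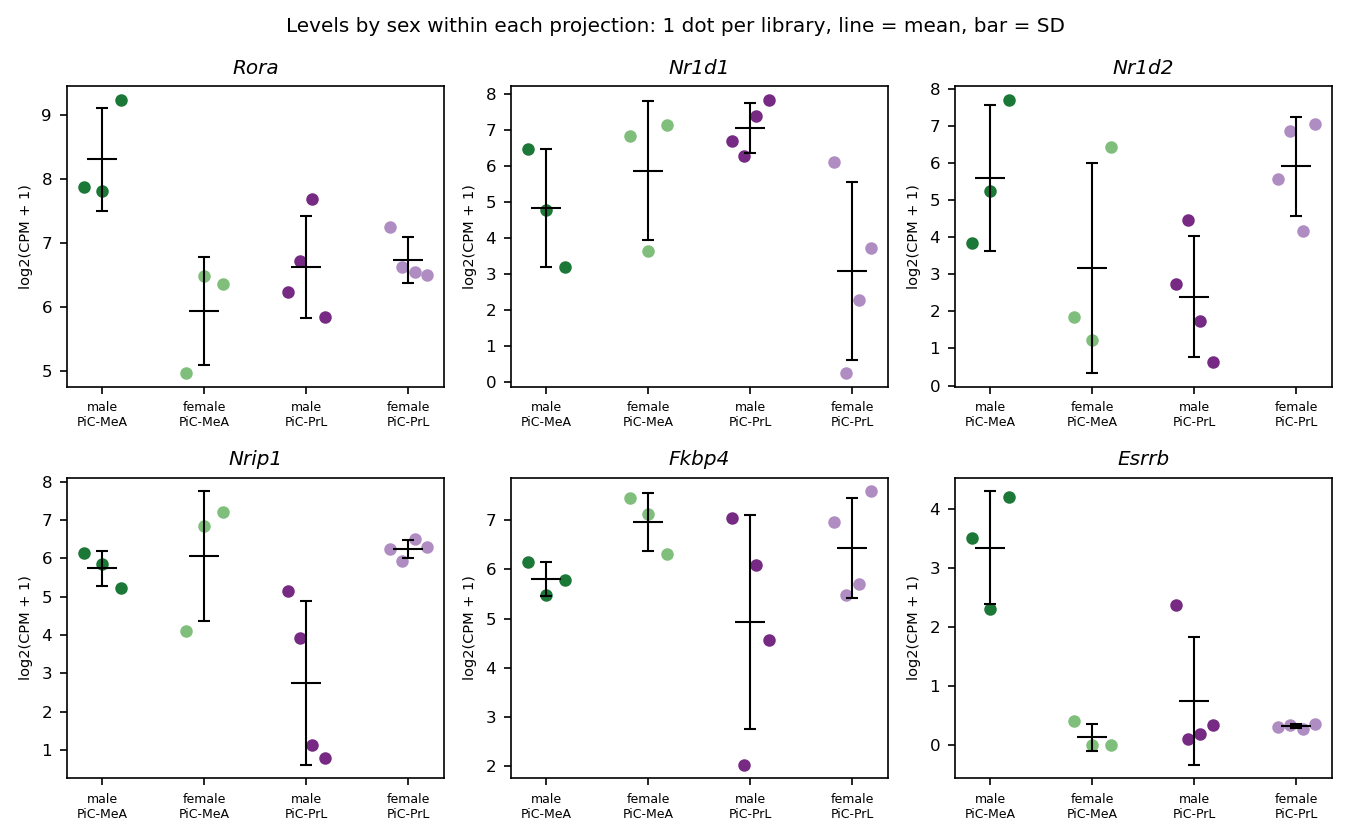
Levels (y axis, log2(CPM + 1)) of 6 genes by group, with 1 dot per library, a line at the mean and a bar for the SD. Rora is high in the 3 male PiC-MeA libraries, and Nr1d1 is higher in male than in female PiC-PrL. Nrip1 is lower in male than in female PiC-PrL, and Nr1d2 overlaps between these groups.

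Averaged over projections, 0 of 41 members differed between males and females, against 0.0137% of all genes. At an unadjusted p under 0.05 there were 3 members (7.32%, against 10.7%), namely Rora, Esrrb and Ppara. DESeq2 called Esrrb alone, against 631 of all 14599 genes. The sex differences of the projections differed for 0 of 41 members, against 0% of all genes, and 8 (19.5%) had an unadjusted p under 0.05, against 15.6%. DESeq2 called 3, which were Rora, Carm1 and Tbl1xr1, against 1175 of all 14599 genes. For Rora the difference was 2.39 ± 0.81 (adjusted p = 0.168, edgeR). For Nr1d1 it was -3.87 (adjusted p = 0.313, edgeR), with -1.10 in PiC-MeA and 2.77 in PiC-PrL. For Nr1d2 it was 4.92 (adjusted p = 0.268, edgeR), with 1.54 in PiC-MeA and -3.38 in PiC-PrL.

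The other members are given by their range over the 14 libraries. Nr2f1 and Nr2f2, the COUP transcription factors of cortical patterning, ran from 1.35 to 124 and from 0 to 66.2 CPM. Nr2c2 (TR4) ran from 0.0924 to 118 CPM, with 30.7% of its exon bases overlapping Mrps25, and Nr6a1 (GCNF) from 0.161 to 90.7 CPM. Crebbp stood at 51.0 CPM or more in every library, Ncoa7 at 23.3 or more, Ncoa4 at 3.96 or more and Med1 at 4.48 or more. Ep300, the relative of Crebbp, was under 1 CPM in 3 libraries, all PiC-PrL. Ncoa5, Ncoa6 and Ppargc1b (PGC-1 beta) ran from 0 to 54.1, from 0.647 to 70.9 and from 0.257 to 51.3 CPM. Fkbp5 had 36.0, 14.3 and 25.1 CPM in male PiC-MeA, above the 7.88 CPM maximum of male PiC-PrL, and 30.5, 0.605 and 5.34 CPM in female PiC-MeA, against at most 9.95 CPM in female PiC-PrL.

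Of 75 neighbouring genes of the system, 60 were tested and none passed in any comparison by edgeR. These were clock genes (13 of 15 tested), genes of retinoid handling (9 of 12), of thyroid hormone handling and response (7 of 8), of LXR and PPAR response (11 of 12), further receptors (6 of 14) and further coregulator parts (14 of 14). The smallest adjusted p was that of Abcg1, a sterol exporter induced by liver X receptors, chosen after its values were seen. It averaged 48.8 ± 6.16 CPM in male PiC-MeA and 229 ± 244 in male PiC-PrL, and 81.4 ± 52.2 CPM in female PiC-MeA and 350 ± 169 in female PiC-PrL (SD, n = 3 and 4 in each sex). Its averaged log2 change was -2.17 ± 0.52 (adjusted p = 0.0537). In the same averaged comparison Bhlhe41, a clock repressor, followed (-1.74, adjusted p = 0.0642). For projection in males the smallest were higher in PiC-MeA: Nr1h4, the bile acid receptor FXR (7.35, adjusted p = 0.0790), Cpt1a, a PPAR target of fatty acid oxidation (6.02, adjusted p = 0.0796), and Kat2b, an acetyltransferase (7.25, adjusted p = 0.0841). Over LXR and PPAR response genes 8 of 11 had a negative averaged change (median -0.60), with 8 of 11 in males and 8 of 11 in females. Negative averaged changes were found in 5 of 7 thyroid genes (median -0.40), 5 of 13 clock genes (median 0.12), 3 of 6 further receptors (0.03) and 5 of 14 coregulator parts (0.31), against 47.6% of all genes (median 0.07). Retinoid handling genes were negative in 6 of 9 on average (median -0.27), but in 2 of 9 in males (median 0.48) and in 7 of 9 in females (median -1.59).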

How the data were processed

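The authors deposited raw counts per gene for 14 libraries. Per the submitters' processing notes, the tools were featureCounts 2.0.1, SAMtools, HISAT2 2.2.1 and Trimmomatic 0.39, on mm10. Annotation release, strand setting and treatment of shared reads: not given in the sources used here. Of 55401 identifiers, 54349 have the same version in GENCODE M21 and 55141 match without it; positions, exon lengths and overlaps came from that release. No column belonged to another sample, and no 2 libraries were identical.

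Genes were kept by filterByExpr (minimum count 10, minimum total 15), leaving 14599. After TMM scaling, edgeR 4.0.16 (R 4.3.3) fitted a group mean for each of the 4 groups by robust quasi-likelihood, using all 14 libraries, and 7 contrasts were tested at a Benjamini-Hochberg adjusted p of 0.05. The SE is the log2 change divided by the root of the F statistic. The fit was tested on simulated data. Counting intervals are 95% exact binomial.

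The members and lists were chosen with earlier results of these data known. Per-library values are given for members called in a contrast, the 3 with the smallest p per direction in each simple contrast, and the 6 highest per kilobase; others named were chosen after their values were seen. The 19 library pairs with the same replicate number had residual correlations of -0.0367 to 0.0495. No pairing of tubes by number was thus seen, though it is not excluded. Alternatives were DESeq2 size factors, the DESeq2 1.42.0 Wald test, no filter, 10 counts in 7 libraries, detected genes as a covariate, a replicate block, no male PiC-MeA libraries, only the groups compared, and leaving out each library.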

Additional observations from a re-analysis of the deposited data

Results flagged for a closer look

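Of 36 checks of 18 members in the 2 groups of 4 libraries, 8 found a library far from the other 3, where chance in normally spread values gives about 1 in 20. Such flags were common in these data: 29.7% of the 29198 checks over all genes tested and 26.8% of the 82 over tested members had one. In female PiC-PrL these were Rora in replicate 1 (152 CPM, next 97.6), Ppara in replicate 2 (0.553 CPM, next 0.143), Ptges3 in replicate 2 (737 CPM, next 273) and Ppard in replicate 2 (0 CPM, next 0.0702, a difference of 1 count). In male PiC-PrL these were Rarb in replicate 3 (10.4 CPM, next 0.385), Rxra in replicate 3 (29.9 CPM, next 0.185), Esrrb in replicate 1 (4.17 CPM, next 0.277) and Nr2c1 in replicate 4 (68.8 CPM, next 3.75). Rarb and Rxra were high in the same tube.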

How the results depend on the processing

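Of 504 values of the named members under alternative settings, 487 kept their direction and stayed on the same side of the threshold, 10 kept their direction and passed it, all by the DESeq2 Wald test, and 7 reversed. When the detected-gene number entered the fit, the reversed log2 changes were -5.58 (Nr1d2), 0.14 (Ncoa3), 1.17 (Ptges3) and 0.10 (Thra) for projection in males, -3.06 (Esrrb) for sex in PiC-MeA and -0.11 (Nr2c1) for sex in PiC-PrL. Nr2c1 also reversed without male PiC-PrL replicate 4, within a leave-one-out range of -0.72 to 3.93. The cause was not tested.

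Counts of all genes called were 88 (projection in males), 0 (projection in females), 0 (sex in PiC-MeA), 0 (sex in PiC-PrL), 120 (projection averaged), 2 (sex averaged) and 0 (difference of sex differences). In the same order, with no filter they were 159, 46, 45, 38, 452, 17 and 84, and by the DESeq2 Wald test 2022, 628, 777, 1017, 1492, 631 and 1175. Members called by edgeR were 0 throughout, except for averaged projection. There Rorb was called with no filter and without female PiC-MeA replicate 1, and Rarb without male PiC-PrL replicate 3. By DESeq2 the members called were 5, 5, 4, 0, 6, 1 and 3. The stricter filter gave 1 gene for sex in PiC-PrL, 75 for averaged projection and 1 for averaged sex. The detected-genes covariate gave 0 for projection in males, averaged projection and averaged sex. Fitting only the groups compared gave 987 genes for projection in males. Without the 3 male PiC-MeA libraries, 0 members were called for projection in females and for sex in PiC-PrL. Leaving out 1 library at a time gave 20 to 139, 0 to 1, 0 to 14, 0 to 1, 39 to 128, 1 to 2 and 0 to 5 genes in the same order, and 0 to 1 members for averaged projection. No pairing of tubes by replicate number was seen, though it is not excluded. The replicate block gave 38 genes for projection in males, 43 for averaged projection, 1 for averaged sex and 0 members. With 3 or 4 tubes of few cells per group, a difference that did not pass is not shown to be absent.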
